A study of Caenorhabditis briggsae with 9 samples.

Results

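The strain carrying allele gu163 of Cbr-spr-4 (also named Cbr-ivp-1) was compared with the wild-type isolate AF16 of Caenorhabditis briggsae, a self-fertile relative of C. elegans. The comparison rests on 6 of the 9 libraries of the study, 3 from gu163 and 3 from AF16, chosen by the strain their labels give. The other 3 came from a strain with allele gu167 of Cbr-htz-1 (Cbr-ivp-2). They entered the fit for its estimate of spread and are set beside gu163 where stated. All 3 strains were L3 larvae, synchronized by bleaching, grown at 20 degrees and checked by Nomarski microscopy, and were taken shortly before division of the vulval precursor cells. Whole animals were used, with rRNA removed before sequencing. Replicates are independent and biological per the labels, which name no promoter, transgene or drug, and what kind of lesion gu163 is was not given in the sources used here.

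SPR-4 of C. elegans is a nuclear protein with many zinc fingers. It was found because its loss relieves the egg-laying defect of presenilin mutants, where it acts with CoREST and LSD1-type proteins to keep the second presenilin gene, hop-1, silent in larvae. LIN-3 is the EGF-like signal that the anchor cell sends to the vulval precursor cells, and its amount sets how many of them take vulval fates. At the L3 stage the germline is proliferating and starting meiosis at its proximal end, while the epidermis makes the collagens and other proteins of the next cuticle at each molt.

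Library totals ran from 8722861 to 12062124 counts in the 6 libraries. On the 12507 genes tested, the first principal component of these libraries (55.4% of variance) separated the strains. AF16 replicate 3 and gu163 replicate 1 lay apart from the rest on the second (23.4%), at -45.1 and -33.2 against 4.75 to 32.5 for the other 4. Levels below are in CPM, the counts of a gene scaled to the TMM-adjusted size of its library. They are not divided by gene length, so levels are compared between strains and not between genes. Fold changes are log2 values, gu163 minus AF16, ± SE with n = 3 per strain, and adjusted p-values are from edgeR's quasi-likelihood test with Benjamini-Hochberg adjustment over all genes tested.

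In gu163 larvae many more genes rose than fell, and the rises were far larger. With all libraries, 1163 genes (9.3% of those tested) passed an adjusted p of 0.05, of which 795 rose (6.36%) and 368 fell (2.94%). The number of falls changed when a library was left out. It was 285, 234 and 377 without AF16 replicate 1, 2 or 3 and 142, 186 and 121 without gu163 replicate 1, 2 or 3. These fits have fewer libraries, and the part of that in the lower counts was not tested. The total was 772 and 654 without gu163 replicate 2 and 3. The text therefore counts held calls, those that passed in the same direction in the fit of all libraries and in 12 others. These left out each of the 6 libraries in turn, used other tools or scaling, dropped the filter on low counts or changed which libraries were fitted. There were 499 held calls, of which 417 rose (3.33% of genes tested) and 82 fell (0.656%). They made up 52.5% of the called rises and 22.3% of the called falls. The strains did not overlap for any held call, nor for 27.5% of all genes tested.

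The held rises had a median log2 fold change of 2.44 and the held falls one of -0.98, where the median of all genes tested was -0.01. Of the rises 376 exceeded 1 on the log2 scale, 268 exceeded 2 and 148 exceeded 3. Of the falls, 37 went below -1 and 7 below -2. The only held fall beyond -3 was that of CBG13822, an unnamed gene chosen after its values were seen. AF16 had 8.86, 9.30 and 11.5 CPM of it and gu163 0.391, 0.580 and 0.564 CPM (-4.20 ± 0.27, adjusted p = 1.3e-05). In gu167 it stood at 10.2, 9.95 and 7.94 CPM, and its difference from gu163 was a held call as well.

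Rises lay mostly among genes with few counts and falls among genes with many. When the genes tested were split by mean level into 5 bins of equal size, held rises numbered 125, 126, 80, 44 and 42 from the lowest to the highest bin, or 5.0, 5.04, 3.20, 1.76 and 1.68% of the genes there. Held falls numbered 4, 6, 9, 32 and 31. In AF16, 159 of the held rises had a mean under 1 CPM and 22 had at most 3 counts over its libraries, whereas 74 of the 82 held falls had a mean of at least 10 CPM. The rising genes together took 0.443, 0.472 and 0.315% of the counts in AF16 and 1.96, 1.69 and 1.59% in gu163. The falling genes took 1.03, 0.855 and 0.719% in AF16 and 0.388, 0.473 and 0.493% in gu163. The part of depth in this split was not tested.

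**Figure D1:**
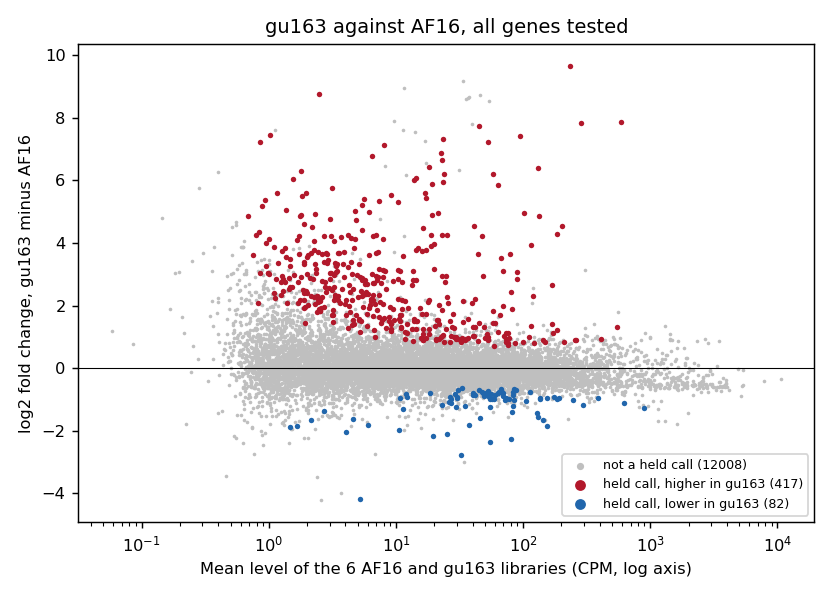
Log2 fold change of gu163 over AF16 against mean level in CPM (log axis) for the 12507 genes tested, 1 point per gene. Red points are the 417 held calls that rose, many at low levels and up to a log2 change of 9.67, and blue points are the 82 that fell, mostly above 10 CPM and with 1 beyond -3.

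The gene that carries the allele was itself higher. Cbr-spr-4 (CBG11849) was at 88, 118 and 120.0 CPM in AF16 and 251, 207 and 249 in gu163, a held rise (1.12 ± 0.16, adjusted p = 0.00232). In gu167 it was at 152, 156 and 144 CPM, also above every AF16 library. By the same edgeR test gu163 was above gu167 by 0.65 (adjusted p = 0.0264), without the call being held. As the lesion is not described, a transcript level does not show whether the strain is as labelled. Cbr-hop-1 (CBG12097), the presenilin gene that C. elegans SPR-4 represses, was at 1.21, 1.56 and 1.13 CPM in AF16 and 1.43, 2.98 and 2.34 in gu163. Its strains overlapped and the difference did not pass (0.80 ± 0.48, adjusted p = 0.343). Of 8 measured presenilin and gamma-secretase genes 0 passed by edgeR, DESeq2 or limma-voom and 0 had an unadjusted p under 0.05, and their median log2 fold change was -0.02. Cbr-lin-3 (CBG05996), the inductive signal, was at 0.705, 0.261 and 0.755 CPM in AF16 and 2.73, 3.81 and 2.90 in gu163 (2.49 ± 0.40, adjusted p = 0.00385), with gu167 at 2.09, 2.90 and 2.31 CPM. The AF16 levels rest on 7, 3 and 6 counts, so the size of the rise is uncertain. Its difference between gu163 and gu167 did not pass (adjusted p = 0.502). Of 33 vulval morphogenesis genes and 26 genes of FGF, other receptor tyrosine kinase and guidance signalling, 0 passed by edgeR, DESeq2 or limma-voom, with 4 and 2 genes at an unadjusted p under 0.05.

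Genes of meiosis formed the list with the largest share of held rises among the 41 lists drawn up from C. elegans gene families, 15 of 41 measured members (36.6%), with 0 held falls and a median of 0.97. Beside those of the 41 lists with at least 2 held calls the 3 with the smallest adjusted p are given in full. Other members, and all examples from lists added later, were chosen after their values were seen. Cbr-him-6, which encodes the meiotic BLM-type helicase, was at 0.504, 0.695 and 1.13 CPM in AF16 and 7.94, 8.61 and 7.73 in gu163. Its lowest gu163 library was well above its highest AF16 library, and the gene rose 10.5-fold (3.40 ± 0.32, adjusted p = 0.000163). Cbr-him-3, of the chromosome axis, went from 2.12, 1.74 and 1.51 to 8.59, 11.3 and 9.34 CPM (2.43 ± 0.24, adjusted p = 0.000207). Cbr-sun-1, whose product links chromosomes to the cytoskeleton through the nuclear envelope, went from 1.41, 0.869 and 1.26 to 6.51, 4.89 and 6.12 CPM (2.31 ± 0.28, adjusted p = 0.000893). The other held members covered several steps of meiosis. They were the axis genes Cbr-htp-2 (2.40) and Cbr-htp-3 (2.11), the cohesin gene Cbr-coh-4 (2.27), the synaptonemal complex genes Cbr-syp-1 (2.87) and Cbr-syp-4 (2.70), and the crossover genes Cbr-msh-5 (2.33) and Cbr-him-14 (2.32). Repair genes were Cbr-rad-54 (1.41), Cbr-brd-1 (1.45), Cbr-mus-101 (1.31) and the mismatch repair genes Cbr-msh-2 (1.56) and Cbr-msh-6 (1.16).

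The gu167 libraries placed these genes differently. In the direct test of gu163 against gu167, 1683 genes passed (13.5% of those tested) and 576 calls were held (4.61%), 419 higher and 157 lower in gu163. Held calls of this test passed in those of the fits above that include gu167. No gu167 library was left out alone, and only the third was left out at all, together with the third AF16 library. These calls can therefore still rest on a single gu167 library. Without gu163 replicate 1 or 3 the 1683 were 710 and 883. Cbr-him-6 was at 1.42, 2.02 and 2.01 CPM in gu167, and gu163 was higher by 2.15 ± 0.28 (adjusted p = 0.0022, a held call). Cbr-him-3 at 7.51, 8.44 and 6.43 CPM and Cbr-sun-1 at 3.17, 4.03 and 3.62 CPM in gu167 did not pass against gu163 (adjusted p = 0.268 and 0.0976). Cbr-syp-1 was at 2.47, 1.99 and 3.14 CPM in gu163 and at 7.18, 8.94 and 8.14 CPM in gu167, so its gu167 libraries all lay above gu163 (-1.67, adjusted p = 0.0238, not held).

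Regulators of germ cell RNA had held rises in 9 of 33 measured members (27.3%), with 0 held falls and a median of 0.79. Cbr-puf-8, a Pumilio-family RNA-binding protein gene, went from 2.01, 1.30 and 1.89 CPM in AF16 to 19.8, 21.8 and 20.9 CPM in gu163. The 3 libraries of each strain lay close together, and the rise was 12.1-fold (3.59 ± 0.21, adjusted p = 9.32e-06). Cbr-cpb-3, of the CPEB family of translational regulators, went from 0.705, 0.521 and 0.755 to 6.38, 5.38 and 4.75 CPM (3.05 ± 0.29, adjusted p = 0.000163). Cbr-gld-3, a Bicaudal-C homologue that works with a cytoplasmic poly(A) polymerase, went from 1.41, 1.13 and 2.39 to 7.94, 9.19 and 9.58 CPM (2.47 ± 0.27, adjusted p = 0.000484). Levels in gu167 were 23.9, 19.5 and 24.2 CPM for Cbr-puf-8, 3.76, 3.46 and 4.02 CPM for Cbr-cpb-3 and 9.85, 10.1 and 9.44 CPM for Cbr-gld-3, and none of these passed the direct test against gu163 (adjusted p = 0.727, 0.151 and 0.753). The other held members were Cbr-cpb-1 (2.17), Cbr-puf-11 (4.09), the Notch receptor gene Cbr-glp-1 (1.49), and Cbr-oma-2 (3.05), Cbr-mex-1 (3.03) and Cbr-pos-1 (2.90), which encode CCCH zinc-finger proteins of oocytes and early embryos.

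Oocyte and eggshell genes were a list added after the values were seen, which shares Cbr-puf-8, Cbr-puf-11 and Cbr-oma-2 with the one before. Of its 23 measured members 10 rose as held calls (43.5%, against 3.33% of all genes tested). Cbr-cyp-31A3, a cytochrome P450 gene of eggshell lipid formation, went from 0.504, 0.608 and 0.252 to 10.4, 9.44 and 11 CPM (4.42 ± 0.28, adjusted p = 1.3e-05). Its gu167 libraries, at 12.1, 12.1 and 14.1 CPM, lay above those of gu163 without passing the direct test (adjusted p = 0.359). Cbr-rme-2, the yolk receptor gene of oocytes, went from 2.92, 2.78 and 1.26 to 37.6, 33.7 and 35.5 CPM (3.90 ± 0.26, adjusted p = 1.51e-05). Genes of phosphatase-like proteins that act in egg activation in C. elegans were held rises as well, Cbr-egg-3 by 4.72 ± 0.35 and its relative Cbr-egg-4 with an adjusted p of 9.78e-05. Cbr-gna-2, for the amino sugar of eggshell chitin, rose by 1.68 ± 0.24 and the chondroitin proteoglycan genes Cbr-cpg-1 and Cbr-cpg-4 by 2.26 and 2.84. Among 15 somatic gonad genes the held rises were Cbr-inx-22 and Cbr-inx-21, which in C. elegans encode innexins of germ cells that couple them to the gonadal sheath. Cbr-inx-22 went from 2.22, 1.30 and 1.26 to 11.2, 14.3 and 17.1 CPM (3.15 ± 0.30, adjusted p = 0.000172) and Cbr-inx-21 from 1.71, 2.0 and 0.755 to 8.33, 10.5 and 10.8 CPM (2.69 ± 0.30, adjusted p = 0.000502). Both genes adjoin each other in the reference gene table. The median of the somatic gonad list was -0.10, near that of all genes tested.

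Markers of germ cells did not move as one. Of 4 general germline markers (gld-1, pgl-1, glh-1 and cgh-1) 2 rose with all libraries, neither as a held call, and their summed level was 115 to 250 CPM in AF16 and 136 to 184 CPM in gu163. Most of that sum was Cbr-cgh-1, at 92.5, 111 and 235 CPM in AF16 and 141, 108 and 106 in gu163. Cbr-gld-1 was at 0.907, 0.348 and 0.755 CPM in AF16 and 2.60, 3.15 and 1.45 in gu163, and Cbr-pgl-1 at 8.36, 4.17 and 6.55 CPM and 18.6, 12.2 and 13.8 CPM. Of 14 sperm genes 5 passed the filter on low counts, of which Cbr-spe-6, Cbr-spe-27 and Cbr-spe-41 rose, and 2 were at 0 in all 6 libraries. Their sum was 34.6 to 43.2 CPM in AF16 and 60.4 to 123.8 CPM in gu163. None of the 7 major sperm protein genes passed that filter. The 5 yolk genes, adult markers, summed to 46.8 to 66.7 CPM in AF16 and 20.4 to 35.0 CPM in gu163, with 0 of 3 measured members passing by edgeR, DESeq2 or limma-voom and 0 at an unadjusted p under 0.05. In whole-animal RNA, more cells of a type and more RNA per cell cannot be told apart. The part of germline size or developmental time in these rises was not tested.

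Genes of spindle and kinetochore function had held rises in 12 of 68 measured members (17.6%), with 0 held falls and a median of 0.40. Cbr-ani-2, an anillin that in C. elegans keeps the syncytial germline open, went from 2.92, 2.78 and 3.52 to 13, 10.3 and 10.3 CPM (1.86 ± 0.21, adjusted p = 0.000484). Cbr-cyk-1, a formin of the contractile ring, went from 30.1, 24.1 and 30.6 to 62.4, 80.5 and 68.9 CPM (1.32 ± 0.15, adjusted p = 0.00061), and Cbr-lin-5, for spindle positioning, from 34.8, 34.3 and 31.3 to 82.5, 60.4 and 71.4 CPM (1.09 ± 0.14, adjusted p = 0.00124). As in every held call, the strains did not overlap in these genes. Cbr-cyk-1 was also above gu167 by a held call (0.83 ± 0.15, adjusted p = 0.0084). Centrosome genes Cbr-spd-2 (0.94) and Cbr-spd-5 (0.80), the kinetochore and condensin genes Cbr-hcp-2 (0.82) and Cbr-hcp-6 (1.02), the myosin gene Cbr-nmy-2 (0.83), Cbr-gpr-2 (1.02) and Cbr-icp-1 (0.98) were further held rises. In a list of 13 anaphase-promoting complex genes, added after the values were seen, 3 were held rises (23.1%, against 3.33% of all genes tested). Cbr-mat-3 went from 2.32, 1.82 and 2.27 CPM to 16.5, 21.3 and 18 CPM (3.13 ± 0.20), Cbr-such-1 rose by 2.92 ± 0.26 and Cbr-emb-1 by 1.25 ± 0.22. Of the 13 members 11 were above 0 and the median was 0.29.

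Lists of histone methylation, histone acetylation and dosage compensation genes had shares of held rises near that of all genes tested. Of 42 histone methylation genes 2 rose, 4.76% against 3.33% of all genes. Cbr-wdr-5.2, of the WD40 family of COMPASS subunits, went from 13.5, 16.8 and 22.8 to 38.1, 32 and 38.4 CPM (1.04 ± 0.20, adjusted p = 0.00928) and was at 15.4, 17.1 and 14.6 CPM in gu167, so gu163 stood above both. Cbr-mes-4, the germline H3K36 methyltransferase gene, went from 10.3, 13.5 and 9.94 to 18.5, 23.2 and 21.7 CPM (0.91 ± 0.18, adjusted p = 0.0103). Of 17 histone acetylation genes and readers the held call (5.88%) was Cbr-brd-1, which is known as a BRCA1 partner in DNA repair. Of 24 genes of dosage compensation and sex determination the held call (4.17%) was Cbr-sdc-3 (0.80 ± 0.13).

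Cell death genes gave 2 held rises among 22 (9.09%, against 3.33% of all genes tested). Cbr-ced-3, the caspase gene, went from 2.22, 2.52 and 2.90 to 6.51, 7.54 and 6.36 CPM (1.42 ± 0.22, adjusted p = 0.00332). Cbr-ced-7, an ABC transporter gene needed for engulfment of dead cells, went from 192, 189 and 169 to 322, 381 and 310.4 CPM (0.88 ± 0.15, adjusted p = 0.0053), and at 154, 168 and 171 CPM gu167 overlapped AF16.

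**Figure D2:**
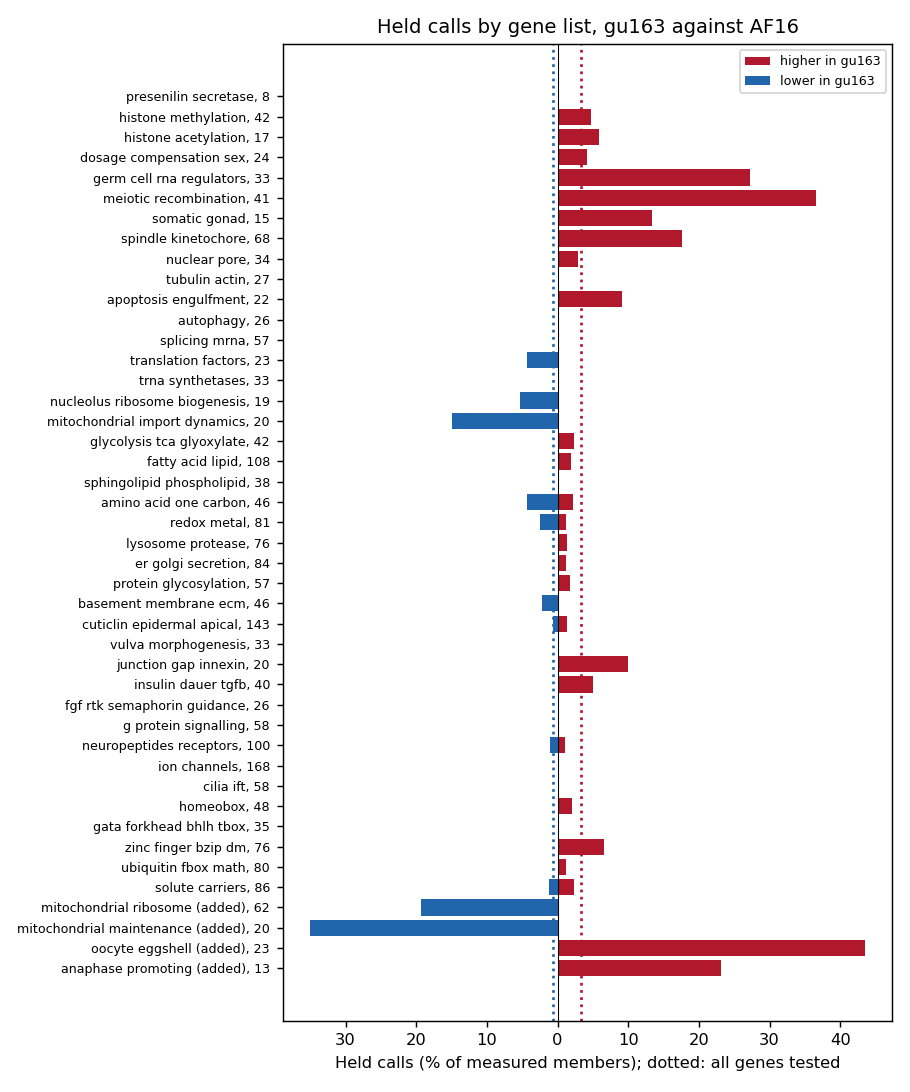
Share of measured members with held calls in 40 of the 41 lists and 4 added lists, rises to the right and falls to the left, with the number of measured members after each name (the major sperm protein list had none). Dotted lines mark the shares over all genes tested, 3.33% for rises and 0.656% for falls; meiosis at 36.6% and germ cell RNA regulators at 27.3% extend furthest right among lists that were not added later, and mitochondrial import at 15% furthest left.

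Of the 98 measured col genes, for cuticle collagens, 7 were held rises and 0 held falls, against 3.33% and 0.656% of all genes tested. With all libraries 22 rose and 2 fell, and the family's median log2 fold change was 0.72. Of the 5 largest gains in mean level among held calls 4 were of these collagens, Cbr-col-36, Cbr-col-43, Cbr-col-123 and Cbr-col-158. They varied widely between gu163 libraries, as did Cbr-col-50. Cbr-col-36 was at 3.02, 4.17 and 8.06 CPM in AF16 and 2668, 524 and 337 in gu163 (7.87 ± 0.96, adjusted p = 0.000874). Cbr-col-43 went from 2.52, 1.39 and 3.65 to 1369, 251 and 89.7 CPM, Cbr-col-50 from 0.302, 0.348 and 0.629 to 211, 38.4 and 21.3 CPM, and Cbr-col-123 from 10.3, 13.6 and 25.8 to 874, 190.4 and 92.1 CPM. Replicate 1 was the highest gu163 library in each. As in every held rise, the lowest gu163 library was above every AF16 library. Cbr-col-158 had the largest log2 change of any held call (9.67 ± 1.24, adjusted p = 0.00118), with 1114, 209 and 73.5 CPM in gu163 against 0.101, 0.261 and 1.51 CPM. Leaving out gu163 replicate 1 lowered its log2 change to 7.97, and leaving out AF16 replicate 3 raised it to 11.20. Without gu163 replicate 1 the log2 changes of Cbr-col-36, Cbr-col-43, Cbr-col-50 and Cbr-col-123 were 6.44, 6.13, 6.16 and 3.11, in place of 7.87, 7.85, 7.73 and 4.55. Collagen genes resemble each other, and the handling of reads shared among copies was not given in the sources used here. Values of single members are therefore uncertain.

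Among families taken up after their values were seen, C-type lectins had 7 held rises and 1 held fall in 36 measured clec genes. Over all genes tested the shares were 3.33% and 0.656%. Of 15 measured grl genes, of hedgehog-like ground proteins, 1 was a held rise, and with all libraries 2 rose and 1 fell. Cbr-grl-3 went from 0.504, 0.434 and 0.252 to 56.8, 21.2 and 7.25 CPM (6.08 ± 0.79, adjusted p = 0.00125), again with replicate 1 highest. The C-type lectin gene Cbr-clec-147 went from 0.403, 0.521 and 0.126 to 50.4, 53.6 and 31.7 CPM (6.89 ± 0.44, adjusted p = 1.3e-05), and Cbr-clec-78 from 0.302, 0.608 and 1.01 to 86.1, 28.3 and 25.6 CPM (6.20 ± 0.60). Cbr-clec-147 stood at 7.43, 5.04 and 3.52 CPM in gu167, between the other strains, while Cbr-clec-78 stood at 0.501, 0.756 and 0.804 CPM, no higher than AF16. Cbr-spe-27, which acts in sperm activation in C. elegans, followed the collagens in its spread, with 1.01, 1.30 and 1.38 CPM in AF16 and 73.8, 28.7 and 9.58 in gu163 (4.91 ± 0.69, adjusted p = 0.00199). Of the 417 held rises, 9 had a highest gu163 library at least 5 times the lowest, and replicate 1 was the highest in 8 of these 9. Over all held rises the median of that ratio was 1.39, where over all genes tested it was 1.37. Among 143 cuticlin and apical epidermal genes 2 held rises (1.40%) and 1 held fall (0.699%) were found (median 0.21). The rises were Cbr-pqn-75, from 0.201, 0.174 and 0.755 to 9.50, 3.06 and 5.80 CPM, and Cbr-pqn-31, from 0.705, 0.174 and 0.378 to 3.39, 1.74 and 2.26 CPM, both of glutamine- and asparagine-rich proteins (4.07 ± 0.58 and 2.52 ± 0.49). The 4 epidermal markers gave sums of 267 to 468 CPM in AF16 and 306 to 499 CPM in gu163. The pharyngeal myosin gene Cbr-myo-2 was at 4.84, 8.69 and 21.3 CPM in AF16 and at 34.5, 23.3 and 35.3 CPM in gu163. It missed the threshold by edgeR (adjusted p = 0.0689) and passed by DESeq2 and limma-voom. The part of timing within the molting cycle in the cuticle gene rises was not tested.

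Genes of metabolism and signalling rose singly. Cbr-far-3, which encodes a fatty acid and retinol binding protein, went from 24.9, 13.6 and 15.4 CPM in AF16 to 469, 157 and 422 CPM in gu163. Its lowest gu163 library was several times its highest AF16 library (4.28 ± 0.41, adjusted p = 0.000182), and gu167, at 26.6, 25.7 and 28.3 CPM, lay near AF16. Cbr-dhs-11, a short-chain dehydrogenase gene, went from 2.32, 1.39 and 1.51 to 8.46, 12.3 and 13.3 CPM (2.71 ± 0.29, adjusted p = 0.000376). These were the 2 held rises among 108 fatty acid and lipid genes (1.85%, against 3.33% of all genes tested), with 0 held falls. Cbr-lec-8, a galectin gene, gained 474 CPM on average, which put it with 4 collagens among the 5 largest gains in level. It went from 207, 373 and 363 to 863, 778 and 722 CPM (1.33 ± 0.24, adjusted p = 0.00735). Cbr-glb-1, a globin gene, went from 27.2, 31 and 18.4 to 107, 48.9 and 115 CPM (1.82 ± 0.32) and Cbr-alh-11, an aldehyde dehydrogenase gene, from 27.1, 27.8 and 18 to 45.3, 45.1 and 44.4 CPM (0.88 ± 0.17). The transporter genes Cbr-sulp-2, of the sulfate permease family, and Cbr-aat-1, for amino acids, rose by 1.91 ± 0.31 and 1.01 ± 0.19.

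Among 40 insulin, dauer and TGF-beta genes the held rises were a pair of insulin-like peptide genes (5%, near the 3.33% of all genes tested). Cbr-ins-10 went from 0.302, 0.348 and 0.252 to 2.60, 1.91 and 2.34 CPM (2.85 ± 0.38, adjusted p = 0.00147) and Cbr-ins-11 from 2.42, 2.95 and 1.89 to 5.86, 6.38 and 5.56 CPM (1.28 ± 0.26, adjusted p = 0.0123). In gu167 they were at 0.417, 0.441 and 0.603 CPM and 2.25, 1.76 and 1.61 CPM, and both differences from gu163 were held. Of 100 neuropeptide and receptor genes 1 rose and 1 fell as held calls (1% each). Cbr-flp-1, for FMRFamide-like peptides, went from 0.705, 0.782 and 2.52 to 11.6, 7.87 and 9.18 CPM (2.89 ± 0.45), and the neuropeptide-like gene Cbr-nlp-26 from 32.9, 43.1 and 34.4 to 17.7, 12.8 and 20.6 CPM (-1.11 ± 0.19). The 4 pan-neuronal markers summed to 139 to 152 CPM in AF16 and 137 to 154 CPM in gu163.

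Of 76 zinc finger, bZIP and related transcription factor genes 5 were held rises (6.58%, against 3.33% of all genes tested) while the list's median was -0.08. Cbr-spr-4, given above, was among the 5. Cbr-zip-10, a bZIP factor gene, went from 1.11, 1.56 and 2.39 to 11.1, 14.2 and 12.8 CPM (2.93 ± 0.35, adjusted p = 0.000728), with gu167 at 2.0, 4.35 and 3.01 CPM and below gu163 by a held call. Cbr-zfp-3 went from 33.8, 32.7 and 36.8 to 66, 68.8 and 65.2 CPM (0.95 ± 0.12, adjusted p = 0.00124). Cbr-madf-8 went from 4.73, 4.78 and 2.39 to 14.7, 13.8 and 16.11 CPM (1.88 ± 0.25, adjusted p = 0.00125). In gu167 these 2 genes were at 55.4, 65.3 and 61.8 CPM and 14.9, 13.7 and 14.8 CPM, and neither passed against gu163 (adjusted p = 0.525 and 0.933). Of 48 homeobox genes Cbr-ceh-81 was the held rise (1.45 ± 0.30), 2.08% against 3.33% of all genes tested. Of 35 GATA, forkhead, bHLH and T-box genes edgeR called 0, DESeq2 1 and limma-voom 0, with 5 at an unadjusted p under 0.05.

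**Figure D3:**
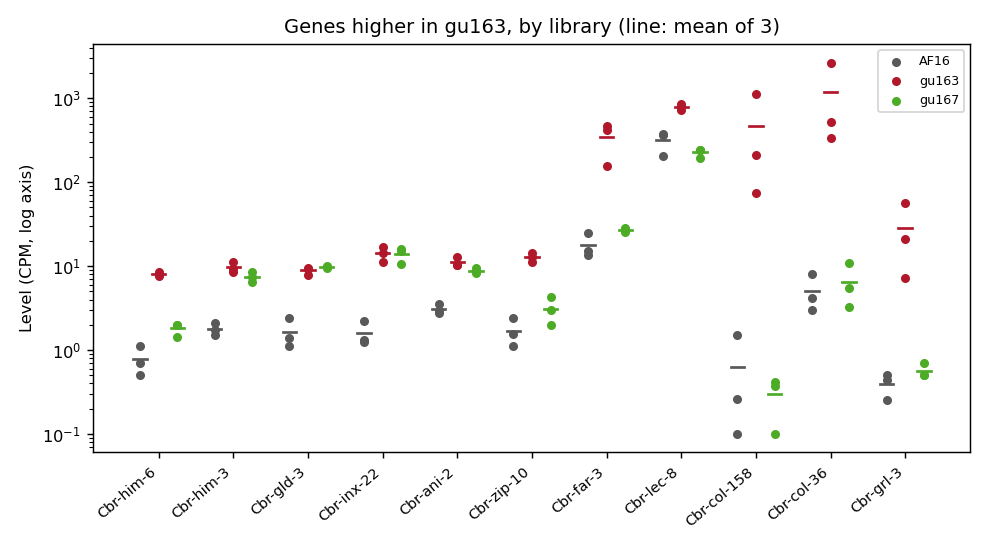
Levels (CPM, log axis) of 11 genes that rose in gu163, 1 point per library and a line at the mean of 3, in AF16, gu163 and gu167. The gu163 points of the collagen and grl genes on the right spread furthest, those of Cbr-him-6, Cbr-zip-10, Cbr-far-3 and Cbr-lec-8 lie above all gu167 points, and those of Cbr-gld-3 and Cbr-inx-22 overlap them.

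Most held rises, 251 of 417, had no symbol in the reference gene table, a share like that of all genes tested, of which 39.4% carried one. The largest among well-counted genes were nearly silent in AF16. CBG06596 was at 0.705, 0.782 and 1.89 CPM in AF16 and 263, 117 and 184 in gu163 (7.44 ± 0.44, adjusted p = 9.32e-06), and CBG11551 at 0.101, 0.782 and 1.26 CPM and 116, 89 and 111 CPM (7.24 ± 0.45, adjusted p = 1.19e-05). In gu167 they were at 1.09, 1.01 and 0.502 CPM and 0.751, 0.441 and 0.201 CPM, and both differences from gu163 were held. CBG21992 had 3 counts over the AF16 libraries and was at 27.6, 10.2 and 10.3 CPM in gu163, a ratio of 141 with an exact 95% interval of 47.9 to 686 that covers counting error only. It overlaps the adjacent held rise CBG21991 (6.80), so the reads of these genes may not be told apart.

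Some of the genes that rose lay beside each other in the genome. Of 407 held rises placed in the order of the reference gene table, 91 (22.4%) had another as an adjacent gene, against 4.44% of the 12333 tested genes that were placed. For held falls the counts were 8 of 82 (9.76%) against 1.01%. Runs of at least 2 adjacent held calls in 1 direction numbered 44, of which 40 rose and 4 held overlapping genes.

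The longest run was of 5 genes, CBG23493, CBG23492, CBG23491, CBG23490 and Cbr-srh-25, the last being named for a chemoreceptor family. CBG23492 was at 0.201, 0.174 and 0.504 CPM in AF16 and 32.6, 51.3 and 54.9 in gu163 (7.34 ± 0.36, adjusted p = 4e-06), and CBG23491 at 0.806, 1.13 and 0.252 CPM and 25.8, 38.8 and 37.3 CPM (5.45 ± 0.36). CBG23490 went from 0.504, 1.04 and 0.629 to 37.8, 53.1 and 48.8 CPM (5.95 ± 0.27, adjusted p = 2.51e-06, the smallest among the genes named here), and Cbr-srh-25 from 2.01, 3.48 and 2.90 to 22.5, 23.4 and 26.9 CPM (3.11 ± 0.28). Replicate 1 was the lowest gu163 library in all of them, where it was the highest for the collagens. CBG23493, at the end of the run, differed from the rest in its gu167 level, with 4.94, 4.61 and 1.01 CPM in AF16 but 19.5, 27.1 and 28.7 in gu163 and 16.7, 19 and 21.5 in gu167. Its difference between the mutants did not pass (adjusted p = 0.51), whereas CBG23492, CBG23491, CBG23490 and Cbr-srh-25 were above gu167 by 6.06, 3.34, 3.46 and 2.27 on the log2 scale, all held.

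A run of 3 held CBG18525, CBG26923 and CBG26924. CBG18525 went from 1.51, 3.21 and 2.01 to 34.8, 56.4 and 40.8 CPM (4.27 ± 0.31, adjusted p = 2.63e-05) and CBG26924 from 0.101, 0.348 and 0.629 to 11.1, 17.1 and 14.7 CPM (5.34 ± 0.41, adjusted p = 3.44e-05). CBG26923, between them, was rarer, at 0.201, 0.261 and 0.126 CPM and 1.30, 2.65 and 2.50 CPM (3.36 ± 0.48). Their gu167 levels were at most 2.33 CPM, and all 3 differences between the mutants were held. Another run was Cbr-klp-16.1, CBG12676 and Cbr-klp-16.2, of which the outer genes are named for the minus-end-directed kinesin KLP-16 of C. elegans. Cbr-klp-16.1 had 1 count over the AF16 libraries and 1.56, 1.33 and 1.13 CPM in gu163, a ratio of 38.3 (exact 95% interval 6.52 to 1550). CBG12676 had 3 counts in AF16 and 1.43, 2.24 and 2.09 CPM in gu163 (ratio 19.5, 6.37 to 96.9), and Cbr-klp-16.2 went from 0.101, 0.261 and 0.126 to 1.43, 3.23 and 2.50 CPM (3.76 ± 0.54). In gu167 this run was at 2.09, 1.95 and 2.21 CPM for Cbr-klp-16.1, and its members did not pass between the mutants (adjusted p = 0.286, 0.367 and 0.899). As copies of 1 gene may share reads, the levels of the Cbr-klp-16 pair are uncertain.

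**Figure D4:**
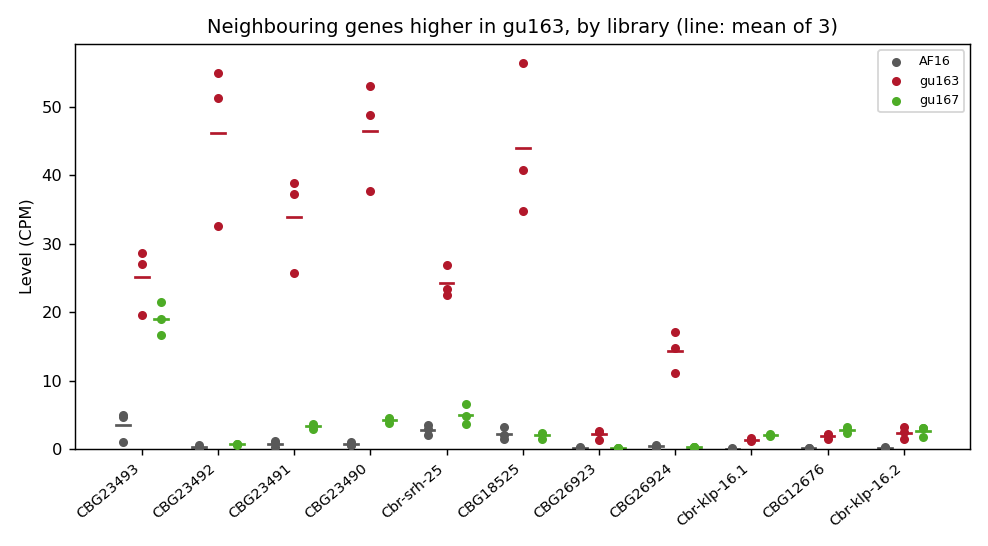
Levels (CPM) of the members of the 3 longest runs of adjacent held calls, 1 point per library and a line at the mean of 3, in AF16, gu163 and gu167. The first 5 genes form 1 run, in which the gu163 points of CBG23493 lie next to those of gu167 and those of the other 4 genes lie far above. The run from CBG18525 to CBG26924 is also far above gu167, and the last run stayed below 4 CPM in every library.

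Most of the named falls in gu163 were of mitochondrial genes. Of the 40 held falls with a symbol 21 (52.5%) encode mitochondrial proteins, 12 of them mitochondrial ribosomal proteins. All 21 belong to 3 lists of mitochondrial genes, which cover 101 genes or 2.05% of those tested with a symbol. As 2 of these lists were drawn up after the values were seen, the shares are a description only. The list of import and dynamics genes had 3 held falls among 20 (15%, against 0.656% of all genes), 0 held rises and a median of -0.45, with 1 member above 0. Cbr-phb-2, a prohibitin gene of the inner membrane, went from 593, 519 and 426 to 268, 245 and 275 CPM (-0.96 ± 0.19, adjusted p = 0.0117). Cbr-atad-3, an AAA ATPase gene, went from 373, 339.7 and 285 to 179, 144 and 169.8 CPM (-1.02 ± 0.20, adjusted p = 0.0113). Cbr-tomm-20, an import receptor gene of the outer membrane, went from 112, 103.3 and 100.1 to 66.4, 59.7 and 59.2 CPM (-0.77 ± 0.14, adjusted p = 0.00862). The falls of all 3 were of 2.03-fold or less, and against gu167 all 3 were lower in gu163 (adjusted p = 0.0227, 0.02 and 0.0196) without the calls being held.

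The mitochondrial ribosomal protein genes, a list added after the values were seen, were lower together by a small amount. All 62 measured genes had a log2 fold change below 0, from -1.02 to -0.01 with a median of -0.63. Of these, 12 were held falls (-1.02 to -0.67), or 19.4% against 0.656% of all genes tested. Summed over these genes, the AF16 libraries held 4256, 3910 and 3680 CPM and the gu163 libraries 2597, 2551 and 2641 CPM. With 4532, 3859 and 3705 CPM in the gu167 libraries, gu163 lay below every library of both other strains. With all libraries 36 fell. Leaving out AF16 replicate 1, 2 or 3 gave 18, 19 and 38, and leaving out gu163 replicate 1, 2 or 3 gave 18, 14 and 14. Cbr-mrpl-9, of the large subunit, had the largest fall, from 106, 89.1 and 93.4 CPM to 44.9, 51.2 and 45.8 CPM (-1.02 ± 0.16). Cytosolic ribosomal protein genes had medians nearly as low, -0.55 for 43 rpl genes and -0.55 for 31 rps genes. They had 0 held calls, and with all libraries 1 rpl gene rose and 1 fell. A shift of about this size was therefore not particular to the mitochondrial ribosome.

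Maintenance genes of the organelle, another list added after the values were seen, had 7 held falls among 20 and a median of -0.79. That share was 35%, against 0.656% of all genes tested. One of the 7, Cbr-clu-1, encodes a cytosolic protein and is not counted among the 21. Cbr-hsp-6, the mitochondrial HSP70, fell by 742 CPM on average, the largest loss in level of any held call, from 1315, 1139 and 1357 CPM in AF16 to 531, 480.0 and 574 CPM in gu163 (-1.27 ± 0.24, adjusted p = 0.0103). Cbr-clu-1, whose loss makes mitochondria cluster, went from 932, 801 and 839.6 to 319, 424 and 429.6 CPM (-1.13 ± 0.22, adjusted p = 0.0103). Cbr-tsfm-1, the mitochondrial elongation factor Ts, went from 141, 122 and 87.6 to 53.1, 47.7 and 51.9 CPM (-1.20 ± 0.19, adjusted p = 0.00403) and was also a held difference from gu167. Cbr-trx-2, the mitochondrial thioredoxin, went from 71, 71.6 and 49.3 to 34, 36.2 and 33.5 CPM (-0.89 ± 0.17). Further held falls were Cbr-cchl-1 (-1.05), a cytochrome c heme lyase, Cbr-mtss-1 (-0.95), which binds single-stranded mitochondrial DNA, and Cbr-coq-6 (-0.91), of ubiquinone synthesis. Glycolysis and TCA cycle genes had 0 held falls among 42, with 39 below 0 and a median of -0.42, and the held call there was a rise of Cbr-sdha-2 (1.13). Without AF16 replicate 3 that median was -0.20.

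Lists of ribosome biogenesis and translation, which hold cytosolic and mitochondrial members, had negative medians with few held calls. Of 19 nucleolar and ribosome biogenesis genes 1 was a held fall, Cbr-nol-1, from 221, 225 and 283 CPM to 116, 117 and 137 CPM (-0.98 ± 0.17), and 18 were below 0 with a median of -0.55. Of 33 tRNA synthetase genes 30 were below 0 (median -0.28) and 0 were held. With all libraries 2 of them fell, Cbr-lars-2 (-0.70) and Cbr-ears-2 (-0.77), both mitochondrial. Of 23 translation factor genes 21 were below 0 (median -0.29) with Cbr-clu-1, also counted above, as the held fall. The mitochondrial Cbr-tufm-1 (-0.83), also of the maintenance list, fell with all libraries but was not held. Without AF16 replicate 3 the median of the nucleolar list was -0.41.

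**Figure D5:**
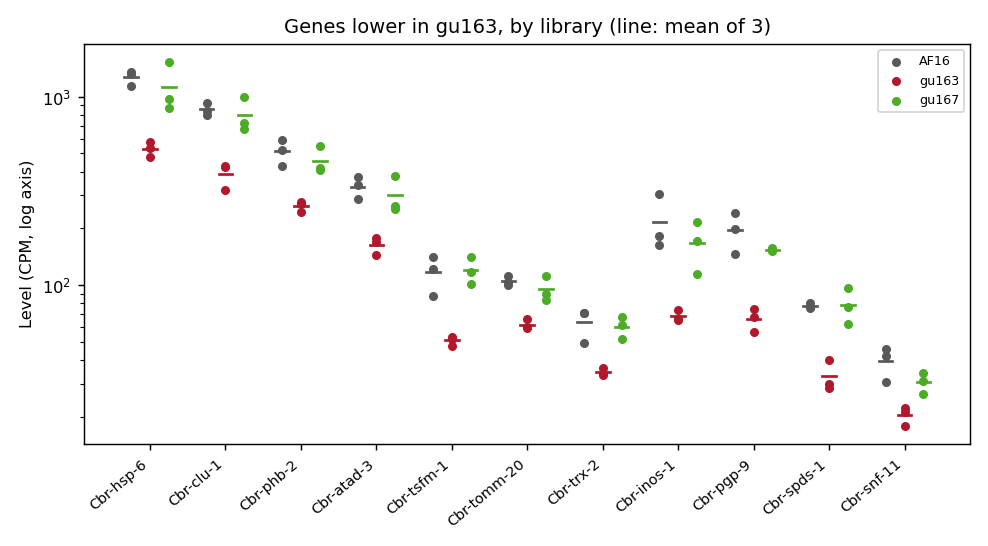
Levels (CPM, log axis) of 11 genes that fell in gu163, 1 point per library and a line at the mean of 3, in AF16, gu163 and gu167. The first 7 genes encode mitochondrial proteins, apart from Cbr-clu-1. In all 11, as in every held fall, the gu163 libraries lie below every AF16 library.

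Other falls were of single genes in metabolism and transport. Cbr-inos-1, for inositol synthesis, went from 182, 164 and 304 to 65.5, 73.7 and 66 CPM (-1.66 ± 0.28, adjusted p = 0.00507), and Cbr-spds-1, the spermidine synthase gene, from 80.3, 75.5 and 76.7 to 29.9, 40.1 and 28.4 CPM (-1.24 ± 0.19, adjusted p = 0.00323). Cbr-ddo-1, a D-aspartate oxidase gene, had the largest held fall of a gene with a symbol, from 22.5, 17.5 and 10.7 to 3.78, 4.89 and 4.11 CPM (-1.98 ± 0.27, adjusted p = 0.00149). In the amino acid list of 46 genes it fell with Cbr-haao-1, of tryptophan breakdown, which went from 91, 128 and 89.5 to 50.3, 44.5 and 60.5 CPM (-0.99 ± 0.19). Cbr-pgp-9, a P-glycoprotein gene, went from 147, 243 and 198 to 56.1, 74.6 and 68 CPM (-1.56 ± 0.19, adjusted p = 0.001), and the aquaporin gene Cbr-aqp-8 from 70.9, 39 and 95.8 to 19.3, 20.8 and 27.1 CPM (-1.61 ± 0.31). The AF16 libraries of Cbr-aqp-8 spread over more than their distance from gu163.

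Cbr-snf-11, the GABA transporter gene, fell from 41.9, 30.8 and 46.1 to 17.8, 21.3 and 22.3 CPM (-0.95 ± 0.18), Cbr-nas-9, an astacin protease gene, from 37.3, 38 and 49 to 18.4, 12.6 and 21.5 CPM (-1.24 ± 0.25), and Cbr-clec-186, a C-type lectin gene, from 68.7, 48.9 and 58 to 10.2, 26.9 and 11.8 CPM (-1.83 ± 0.32). Against gu167, Cbr-ddo-1, Cbr-pgp-9, Cbr-spds-1, Cbr-nas-9 and Cbr-clec-186 were held as lower in gu163. Cbr-inos-1, Cbr-aqp-8, Cbr-snf-11 and Cbr-haao-1 were not held there.

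Of the held falls without a symbol, CBG12124 was at 107, 31.4 and 32.5 CPM in AF16 and 7.42, 10.2 and 6.93 in gu163 (-2.80 ± 0.46, adjusted p = 0.00475). CBG22805 was at 52, 92.6 and 131 CPM and 17.1, 14.3 and 21.4 CPM (-2.38 ± 0.31, adjusted p = 0.00132), CBG06384 at 191, 111 and 92.8 CPM and 36.5, 27.1 and 18.9 CPM (-2.27 ± 0.32), and CBG19336 at 40.5, 24.5 and 30.5 CPM and 10.9, 5.38 and 5.32 CPM (-2.17 ± 0.31). Their AF16 levels varied by 1.65-fold or more between libraries, and every gu163 library lay below them, as in every held fall. CBG06384 was also low in gu167, at 48.2, 46.8 and 33 CPM, whereas CBG22805 stood at 76.9, 94.4 and 110.3 CPM there. By level lost, CBG09861, from 447, 376 and 402 to 191, 166 and 179 CPM (-1.19 ± 0.20), and CBG17652, from 313, 105 and 303 to 65.2, 71.7 and 60.3 CPM (-1.87 ± 0.35), stood among the 5 largest falls. The reference gene table gives neither gene a name.

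Other lists of somatic and housekeeping function had 0 or 1 held call each. Over all genes tested 3.33% were held rises and 0.656% held falls, and in the smaller lists such counts are near those shares. Held calls numbered 0 among 168 ion channel genes, 58 cilium genes, 58 G protein signalling genes, 57 splicing genes, 38 sphingolipid and phospholipid genes, 27 tubulin and actin genes and 26 autophagy genes, whose medians lay between -0.31 and 0.07. The lowest, that of cilium genes, was 0.14 without AF16 replicate 1. With all libraries edgeR called 4, 1, 1, 0, 4, 1 and 0 of these genes and DESeq2 called 8, 2, 2, 1, 6, 1 and 2, with 26, 8, 5, 8, 12, 5 and 5 at an unadjusted p under 0.05. Single held calls were the proton pump gene Cbr-vha-18 (3.32) among 76 lysosome and protease genes, Cbr-fut-6 (1.40) among 57 glycosylation genes, Cbr-zif-1 (1.63) among 80 ubiquitin pathway genes, Cbr-lem-3 (1.32) among 34 nuclear envelope and pore genes and the fibulin gene Cbr-fbl-1 (-1.0) among 46 basement membrane genes. Of 84 secretory pathway genes the held rise was Cbr-arf-1.1, with 1 count over the AF16 libraries. Muscle and intestine markers, 3 and 4 genes, had 0 genes passing by edgeR, DESeq2 or limma-voom and 0 at an unadjusted p under 0.05, with overlapping sums of 11232 to 26532 CPM and 3534 to 7131 CPM in AF16 and 12070 to 18306 CPM and 4129 to 5757 CPM in gu163. In all, 66 of the held rises and 13 of the held falls belonged to any of the 41 lists, which cover 1978 of the genes tested.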

How the data were processed

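RNA of 9 libraries, 3 each from AF16, gu163 and gu167, was measured by RNA sequencing. The authors deposited raw counts of reads for each gene, not normalized. DESeq, STAR, FastQC and Trim Galore appear in the submitters' processing notes, which state neither their versions nor their roles. The counter, its strand setting, the annotation and the build were not given in the sources used here. Overlapping or antisense genes and near-identical copies therefore cannot be told apart by their reads. Symbols and gene order came from a reference gene table of assembly CB4 matched by locus tag (22727 of 22922 identifiers). Its coordinates were used only to order the genes and to mark overlapping neighbours.

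Counts were fitted with edgeR 4.0.16 in R 4.3.3 (TMM scaling, minimum count of 10 in its expression filter, robust quasi-likelihood F tests) over all 9 libraries in 3 groups, leaving 12507 genes. Benjamini-Hochberg adjusted p-values under 0.05 were called. The SE of a log2 change came from its F statistic. A held call also passed, in the same direction, in the fits without each of the 6 gu163 and AF16 libraries, without the third AF16 and gu167 libraries together, with only gu163 and AF16, without the filter, with RLE scaling, and by DESeq2 1.42.0 and limma-voom (limma 3.58.1). The steps were tested on simulated counts. Ratios where the lower strain held 1 to 3 counts have exact 95% intervals, for counting error only. A level of 3 counts is 0.242 to 0.391 CPM in these 6 libraries. Replicates differed by far more than sampling noise (chi-square per degree of freedom from 17.3), so none was counted as a copy.

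Lists were matched by symbol from C. elegans families, and neither the 41 lists nor the comparison were independent of earlier results of these data, which were known when they were chosen. The 4 added lists were chosen after the values were seen. Genes named were Cbr-spr-4, Cbr-lin-3 and Cbr-hop-1, and among held calls the 10 largest fold changes each way with a symbol, at least 10 CPM in the higher strain and no overlap between strains, the 4 largest each way without a symbol, the 5 largest changes each way in mean CPM, the 3 smallest adjusted p-values of each list with at least 2 held calls, and the members of the 3 longest runs of neighbours. Alternatives were the fits above, a replicate block and an adjusted p of 0.0005.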

Additional observations from a re-analysis of the deposited data

How the results depend on the processing

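The 79 named calls of gu163 against AF16 were held, which fixes their outcome in 12 of the 13 alternative fits, and in the other, with a replicate block, they also passed. Called genes that were not held did lose calls, for example Cbr-gld-1 in 7 of these 12 fits and Cbr-pgl-1 in 4. The fold of 15 named genes moved by over 1.5 times without 1 library. Beside the 5 collagens given above, Cbr-clec-78, Cbr-grl-3, Cbr-spe-27 and CBG21992 had log2 changes of 5.43, 5.11, 3.97 and 6.51 without gu163 replicate 1. Without AF16 replicate 3 Cbr-pqn-75, Cbr-flp-1 and Cbr-klp-16.1 had 4.94, 3.66 and 6.94, and without AF16 replicate 1 Cbr-pqn-31, CBG12676 and CBG12124 had 3.16, 4.97 and -1.96. Cbr-hop-1 stayed uncalled. The numbers of calls moved more. With DESeq2 594 genes fell, in place of 368. When only the 6 libraries of AF16 and gu163 were fitted, 759 genes were called and 182 fell. At an adjusted p under 0.0005, another reading of the threshold the submitters print, 85 genes were called, 84 rose and 1 fell, 25 differed between gu163 and gu167, and 22 of the 80 named genes stayed on the same side. Leaving out 1 library gave 654 to 1078 calls, 121 to 377 falls and 710 to 2488 differences between gu163 and gu167. In their departures from the strain means, same-numbered libraries of AF16 and gu163 correlated at -0.29, 0.19 and -0.16, and not every library correlated best with its own number. With 3 libraries per strain these values cannot settle whether the numbers pair the samples. With a replicate block, 876 genes were called, 648 rose and 228 fell. The cause of these differences was not tested. Of the 417 held rises 162 had at most 30 counts over the AF16 libraries, so counting error adds to the error of their fold changes, and the part of depth in which genes were called was not tested.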

Other observations

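Further pairs of adjacent genes rose together, chosen here after their values were seen and given as log2 fold changes. Cbr-mut-2 (3.24), a nucleotidyltransferase of small RNA pathways, adjoined Cbr-mat-3 (3.13) of the anaphase-promoting complex. Cbr-pos-1 (2.90) adjoined the proton pump gene Cbr-vha-18 (3.32), Cbr-such-1 (2.92) adjoined the sperm kinase gene Cbr-spe-6 (2.66), and Cbr-puf-11 (4.09) adjoined Cbr-cyp-31A3 (4.42). Cbr-puf-8 (3.59) stood between the unnamed genes CBG13129 (3.77) and CBG13131 (4.76). Cbr-sun-1 (2.31) adjoined Cbr-rig-4 (0.88), Cbr-coh-4 (2.27) adjoined the kinesin gene Cbr-bmk-1 (1.04), and Cbr-spd-5 (0.80) adjoined Cbr-hcp-6 (1.02). The antimicrobial peptide family members Cbr-cnc-3 (1.69) and Cbr-cnc-2 (1.86) were neighbours as well, as copies of each other that may share reads. Among falls, Cbr-mrps-2 and Cbr-mrpl-4, of the small and the large mitochondrial ribosomal subunit, were neighbours and both stood at -0.76.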
